A study of Homo sapiens with 58 samples.

Results

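The regions described here are 746 HuR binding peaks in 3'UTRs whose signal in the cytoplasmic fraction of Huh-7.5 cells was lower after arsenite. They were chosen from 387214 peaks by measured values: a 3'UTR annotation, a mean of at least 10 CPM (tags per 1000000 of the library total) in the 3 mock cytoplasmic libraries, and a mock mean plus 1 that is at least 3 times the arsenite mean plus 1. Of 37614 peaks annotated as 3'UTR, 2548 reached the mock minimum and are called eligible below. The members are 29.3% of the eligible peaks and lie in 575 genes, with 1 member carrying no gene symbol. The other 1802 eligible peaks serve as the comparison.

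HuR, encoded by ELAVL1, is an RNA-binding protein that recognises U-rich and AU-rich stretches, mostly in introns and 3'UTRs. It is mainly nuclear at rest, shuttles to the cytoplasm, and is known for protecting bound mRNAs from decay. Arsenite is an oxidative stressor that blocks translation initiation, after which untranslated mRNAs and proteins such as G3BP1 gather in stress granules.

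HuR CLIP-seq sequences RNA fragments crosslinked to HuR by UV light and recovered with an antibody (3A2 here). Huh-7.5 is a human hepatocellular carcinoma line. Cells of 16 groups (58 libraries) received no arsenite (mock) or 0.5 mM of it, as the sodium salt, over 45 min, and all were UV crosslinked with doses of 400 and 200 mJ/cm2. The cytoplasmic and nuclear fractions came from WT cells without the APEX reaction, with 3 libraries per treatment. The other lines, APEX-G3BP1, APEX-NES and APEX-NLS, carry a peroxidase that biotinylates proteins near the stress-granule protein G3BP1, in the cytoplasm (NES) or in the nucleus (NLS). Mock and arsenite cells of these lines both received 0.5 mM biotin phenol for 30 min and 1 mM hydrogen peroxide for 1 min, so even their mock cells met an oxidant. Their enriched libraries had a streptavidin capture besides the HuR immunoprecipitation, and their input libraries did not. The labels name no promoter for APEX and do not say whether a line is 1 clone or whether replicates were separate cultures, so p-values measure only the spread between these libraries.

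Fraction libraries held 235471 to 673322 tags in peaks, input libraries 1353 to 484305 and enriched libraries 519 to 86419. In 16 libraries there were fewer than 10000 tags in peaks, and in 5 fewer than 2000. All fraction libraries belong to one library set (JL0380, a prefix in the descriptions). Of 10 hepatocyte markers, 8 had tags in the fraction libraries, where they summed to 804 to 2873 CPM, while APOA1 and TTR were at 0. Markers of fibroblasts, endothelium and blood cells summed to at most 1.5998, 1.73 and 6.36 CPM. Libraries 1 and 2 of set JL0388 may be repeats of 1 sample in 3 groups. A chi-square test of their tags found no difference at NES enriched mock (chi-square per degree of freedom 0.88, p 0.574, over 14 peaks), NES enriched arsenite (1.41, p 0.0629, 33 peaks) or NLS enriched arsenite (1.30, p 0.0654, 56 peaks). Only the first was below sampling noise, and few peaks could be tested. Each pair was counted as 1 sample in the means with an SD, and the fits kept them apart, with an average as an alternative.

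The cytoplasmic values chose the members and are given as a description. The smallest fold between the mock and arsenite means was 3.02 and the median was 4.64. On the scale of the rule 382 members were lower by less than 4-fold and 7 by at least 10-fold. In 738 of the 746 members every arsenite library was below every mock library. Among all 3617 peaks with a mock mean of at least 10 CPM, 61.3% showed that separation and 27.0% passed the fold. Many members were modest in size: 420 had a mock mean of at least 20 CPM, 171 of at least 50 CPM and 69 of at least 100 CPM. None was without tags after arsenite, and 3 had 3 tags or fewer in the arsenite libraries together. Peaks sat close to the threshold on both sides. UBE2K went from 13.998 to 3.998 CPM and ASPH from 16.7 to 4.89 CPM just inside it, and SPOPL went from 18.5 to 5.50 CPM and SLC44A1 from 17.1 to 5.02 CPM just outside it. BCL9 (10.03 CPM) and RNF2 (10.04 CPM) were the lowest members by mock mean, and SERINC5 and COL2A1 (both 9.79 CPM) just missed the minimum. In bulk fractions less of an mRNA in the fraction and less HuR on each mRNA cannot be told apart.

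**Figure D1:**
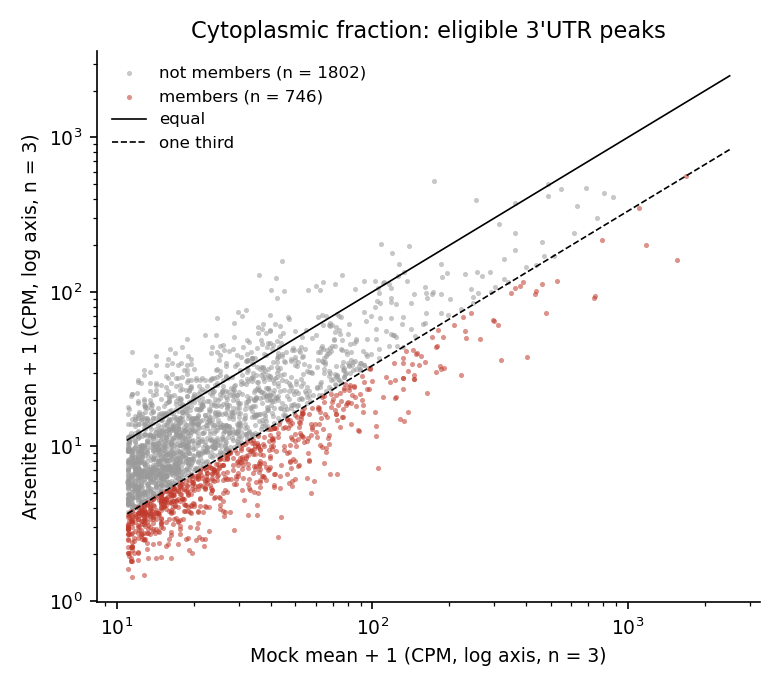
Mean of the 3 mock cytoplasmic libraries (horizontal) against the mean of the 3 arsenite cytoplasmic libraries (vertical), both in CPM plus 1 on log axes, for the 2548 eligible 3'UTR peaks. The 746 members (red) lie under the dashed line of the 3-fold rule by construction, and most of the 1802 other peaks (grey) lie under the solid line of equal values.

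The members with the highest mock level were in ACTB, SPTBN1 and IGF2. The peak in ACTB, which encodes cytoplasmic actin (ENSG00000075624, chromosome 7, 5527610 to 5527630, coordinates as the table gives them on GRCh38.p14), had 1326, 1842 and 1894 CPM in the mock libraries. After arsenite it had 476, 662 and 537 CPM. All mock values were above all arsenite values, as in 738 of the 746 members, and ACTB was nonetheless the strongest member after stress. The peak in SPTBN1, encoding a spectrin of the membrane skeleton (ENSG00000115306, chromosome 2, 54669256 to 54669276), had 1522, 1747 and 1377 CPM in mock and 183, 193 and 103 CPM after arsenite. The peak in IGF2, a growth factor made by fetal liver and many liver tumours (ENSG00000167244, chromosome 11, 2130551 to 2130571), had 1054, 1259 and 1227 CPM in mock and 159, 230 and 215 CPM after arsenite. The proportional difference was thus larger at SPTBN1 than at ACTB, although their mock levels were alike.

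The rest of the 10 highest members covered a range of roles. By group mean, CNN3 (an actin-binding calponin) went from 788 to 217 CPM, GSN (gelsolin, an actin-severing protein) from 734 to 90.3 CPM, and SDC1 (the heparan sulphate proteoglycan syndecan) from 526.2 to 116 CPM. NUTF2, which carries Ran into the nucleus, went from 745 to 92.7 CPM. STT3A, the catalytic subunit of an oligosaccharyltransferase, went from 477 to 71.7 CPM, and ABCA1, a cholesterol exporter, from 461 to 112 CPM. EIF5AL1 went from 1104 to 349 CPM, but it is a near-copy of EIF5A, so its tags are uncertain between the genes. The same holds for ACTB and its near-copies POTEF, POTEI, POTEJ and POTEM, each of which adds 1 member (mock means 54.3, 56.7, 54.96 and 72.3 CPM), and ACTG1, which encodes the other cytoplasmic actin, adds 1 more (90.1 CPM).

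The 10 members with the largest fold were ranked on the scale of the rule, with 1 CPM added to both means; folds of the means alone would rank some weaker peaks above several of them. TMEM123, a transmembrane mucin-like receptor, had 34.0, 53.0 and 38.0 CPM in mock and 0.722, 3.41 and 0.696 CPM after arsenite. TFPI, a secreted inhibitor of blood coagulation, had 88.3, 119 and 106 CPM in mock and 4.33, 7.39 and 6.96 CPM after arsenite. In both, each mock library was far above each arsenite library, a separation that the rule favours and 738 of the 746 members showed. SLC6A6 (a taurine transporter), ADAM10 (a membrane protease), LAMP2 (a lysosomal membrane protein), DCBLD2, TNFRSF1A (a TNF receptor), PDIA4 and HSPA13 (both of the endoplasmic reticulum) and COX16 (a mitochondrial assembly factor) completed the 10. Their mock means ran from 18.8 CPM at HSPA13 to 400.2 CPM at PDIA4, and their arsenite means from 1.03 to 37.0 CPM. Levels of a few CPM rest on few tags, since 3 tags equal 1.71 to 2.17 CPM in the arsenite cytoplasmic libraries.

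Members often shared a gene. A single member was found in 471 genes, 2 in 66 genes and 3 or more in 38 genes. In 330 genes each eligible peak was a member, and in 245 genes members and other eligible peaks occurred side by side. Of the 282 genes with a member and at least 2 eligible peaks, 37 had members only. Adjacent members of a gene were a median of 348 nt apart over 171 gaps, and 23 gaps were under 100 nt, so neighbouring members can share an RNA stretch and are not independent. CALU, encoding a calcium-binding protein of the secretory pathway, had 7 members among 7 eligible peaks, which together went from 537 ± 91.8 to 135 ± 16.2 CPM (SD, n = 3 each). ATP1B1, the beta subunit of the sodium pump, had 7 of 8, and together they went from 529 ± 71.1 to 128 ± 10.5 CPM (SD, n = 3 each). CANX, the lectin chaperone calnexin, had 7 of 14, so its 3'UTR held members and peaks that kept more of their signal. SLC16A1, a lactate transporter, had 6 of 7, SLC12A2, a sodium, potassium and chloride cotransporter, had 5 of 7, and MARCKS, a protein kinase C substrate, had 5 of 11.

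Position within the 3'UTR was similar inside and outside the set. The median distance to the 3' end of the RefSeq gene was 1552 nt for the 737 members whose gene matched and 1634 nt for 1791 other eligible peaks. Of the members 14.4% lay within 300 nt of that end, against 13.5% of the others. A further annotation beside 3'UTR, such as an intron of another transcript, was carried by 42.1% of members and 43.1% of the others. The sequences under the peaks were not analysed here.

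The gene lists below describe which genes the members came from. Over all genes, 575 of 1520 with an eligible peak (37.8%) had a member, and 29.3% of the eligible peaks were members. No list was tested, because the cytoplasmic contrast had chosen the members. Of the genes for cell surface adhesion proteins, 9 of 10 had a member (19 of 25 peaks): ALCAM, BSG, CD46, CD47, CDH1, CDH2, ITGA6, ITGAV and ITGB1. At its strongest member ITGB1, the beta subunit shared by many integrins, had 52.1, 76.4 and 70.7 CPM in mock and 12.3, 9.10 and 11.1 CPM after arsenite. These values did not overlap, as in 738 of the 746 members. Of the plasma protein genes of hepatocytes 5 of 8 had a member (11 of 15 peaks): ALB, FGA, FGB, FN1 and TFPI. Of the SLC transporter genes 25 of 37 had one (42 of 75 peaks), with SLC38A2, a transporter of small neutral amino acids, the strongest at 438 CPM in mock and 101 CPM after arsenite by mean. A list of machinery of the endoplasmic reticulum and secretory pathway, drawn up after the members were seen, had members in 25 of 31 genes (57 of 107 peaks), among them CALR, CANX, STT3A, STT3B, RPN1, RPN2, SSR1, SSR3, SEC63, SRPRB, LMAN1, KDELR2, PDIA3, PDIA4 and HYOU1.

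Other lists held smaller shares than those above, though heat shock, TMEM and NRF2 genes stayed over the 29.3% of all genes. A small share need not mean a small fall. The median cytoplasmic log2 ratio of eligible peaks (arsenite over mock, 1 CPM added) was -1.13 over all genes. It was -1.28 for RAB, -1.23 for lipid synthesis and -1.14 for EIF genes. For HuR targets, UBE2, NRF2, stress-granule, RPL and RPS, ZNF, AU-rich decay and PSM genes it lay between -1.05 and -0.47. No ribosomal protein peak was a member (0 of 6), nor did the integrated stress response list hold an eligible peak. RAB GTPases had 1 member among 14 eligible peaks (RAB8B), translation initiation factors (EIF) 3 of 26, zinc finger genes (ZNF) 3 of 24, proteasome genes (PSM) 2 of 12 and ubiquitin-conjugating enzymes (UBE2) 3 of 15. The strongest member of each, beside EIF5AL1, was PSMD11 (137 to 29.6 CPM by mean, mock to arsenite), ZNF22 (22.6 to 5.25 CPM), RAB8B (18.5 to 2.74 CPM) or UBE2C (15.3 to 3.86 CPM). Stress-granule proteins had 4 of 21 (G3BP1, G3BP2, TIAL1 and UBAP2L). Of the peaks of textbook HuR targets 6 of 26 were members, in ACTB, EIF4E, MDM2 and NUCKS1. Regulators of AU-rich decay had 3 of 15 (KHSRP, ZFP36L1 and ZFP36L2), and cholesterol and lipid synthesis 5 of 18 (in FDFT1, HMGCS1, MSMO1 and SCD). TMEM genes had 14 of 36, heat shock and chaperone genes 3 of 6 (DNAJA1, HSP90AA1 and HSPA1B) and NRF2 targets 2 of 6 (SLC7A11 and TXNRD1). The strongest members by list, beside ACTB among the HuR targets, were HSP90AA1 (178 to 43.8 CPM), SCD (131 to 26.7 CPM), TMEM97 (71.8 to 13.7 CPM), ZFP36L2 (60.9 to 16.8 CPM), G3BP1 (50.1 to 10.1 CPM) and TXNRD1 (31.3 to 9.72 CPM). HSPA1B has the near-copy HSPA1A, so its tags are uncertain.

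**Figure D2:**
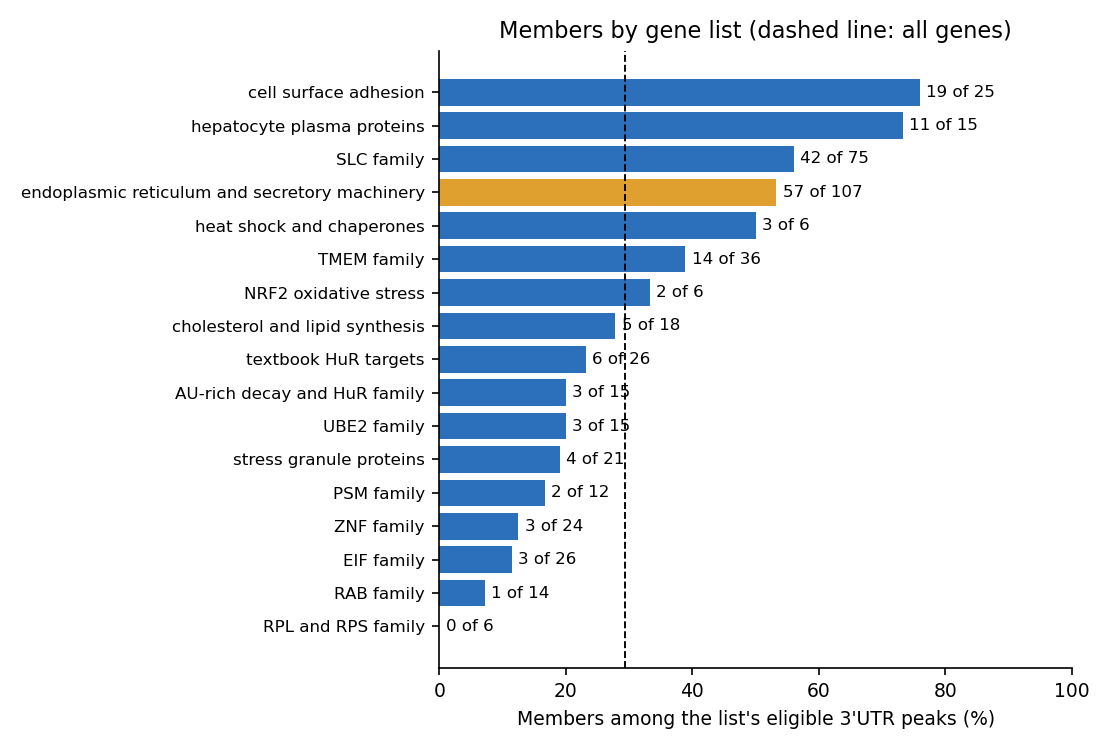
Share of each list's eligible 3'UTR peaks that are members (bars, in percent, with the counts beside them). The dashed line marks 29.3% over all genes, and the orange bar is the list drawn up after the members were seen. Cell surface adhesion (19 of 25) and plasma proteins (11 of 15) are at the top, and RPL and RPS genes (0 of 6) at the bottom.

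The nuclear fraction was not used to choose the members and asks what the same peaks did on the other side of the cell. The members' summed nuclear signal was similar in mock and arsenite libraries, while that of the other eligible peaks was higher after arsenite. The summed signal of all 746 members was 7320 ± 396 CPM in mock and 6961 ± 695 CPM after arsenite (SD, n = 3 each). The libraries ran from 6864 to 7585 CPM and from 6187 to 7532 CPM, so the groups overlapped. The other eligible peaks summed to 12602 ± 955 CPM in mock and 27905 ± 1521 CPM after arsenite (SD, n = 3 each), without overlap. Members therefore made up 36.8% ± 0.539 of the eligible signal in mock and 19.9% ± 0.795 after arsenite (SD, n = 3 each). In the cytoplasmic fraction, by the choice of members, their share went from 39.0% to 17.2%.

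Peak by peak, limma tested 744 of the members in the nuclear fraction on log2(CPM + 2.28) and called 3 higher and 9 lower after arsenite at an adjusted p under 0.05. Over all 200232 tested peaks 0.186% were called, 0.152% higher and 0.034% lower, and over all 3'UTR peaks 1.2% higher and 0.0563% lower. Among 1800 other eligible peaks tested 10.5% were higher and 0.0556% lower. The median log2 difference was 0.05 for members, 0.72 for the other eligible peaks and 0.01 for all tested peaks. The members spread to both sides, with 402 positive and 342 negative differences. Every arsenite library was above every mock library in 13.7% of members and below in 13.0%. Of the other eligible peaks 49.8% lay above and 1.44% below, and of all tested peaks 7.66% and 9.28%. The share of 3'UTR peaks among all tags in peaks moved too, from 11.7% to 19.2% in the nuclear and from 42.3% to 24.5% in the cytoplasmic fraction. Its part in the result was not tested.

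**Figure D3:**
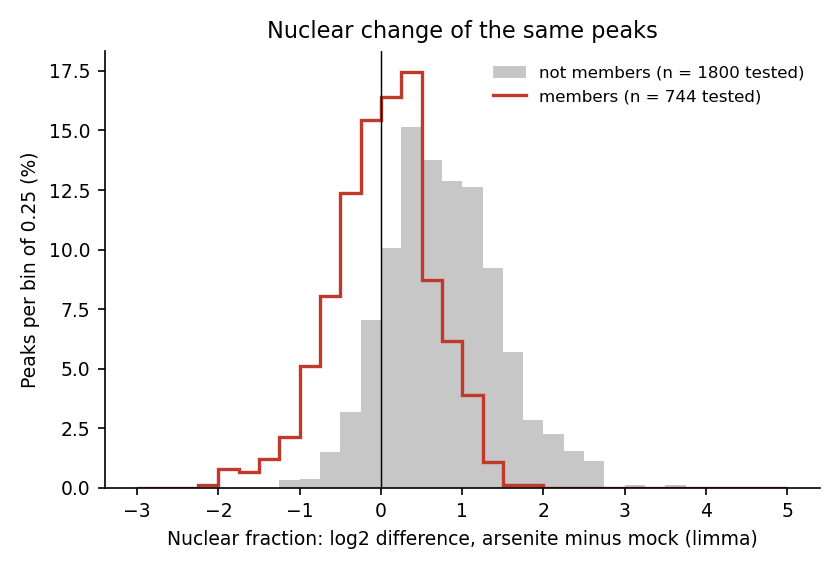
Log2 difference, arsenite minus mock, in the nuclear fraction (limma estimate, 3 libraries per group) for 744 members (red line) and 1800 other eligible 3'UTR peaks (grey), as percent of each set per bin of 0.25. The members centre near 0 (median 0.05) and the other peaks lie to the right (median 0.72).

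The counts of called members rested on single libraries and on TMM scaling. Without mock library 1, arsenite library 1 or arsenite library 2, limma called 0 members (144, 146 and 141 had an unadjusted p under 0.05). Of all tested peaks 0.000372%, 0.000392% and 0.000396% were called there. Without mock library 2, mock library 3 or arsenite library 3 it called 6, 9 and 11 members (0.806%, 1.21% and 1.48% of those tested). Of all tested peaks 0.038%, 0.0491% and 3.37% were called. Without arsenite library 3 the members were thus called less often than all tested peaks. EdgeR's quasi-likelihood test on the recovered tags called 11 members higher and 15 lower, 9 of them among the 12, beside 0.292% and 0.0854% of all tested peaks. After TMM scaling edgeR called 0 members (149 unadjusted) and 0.0629% of all tested peaks. Unadjusted and higher were 14.8% of tested members beside 7.09% of all tested peaks. TMM moved the median log2 difference of all tested peaks to 0.27. Scaling to the tags in peaks called 16, all 12 among them, beside 0.207% of all tested peaks. Over the 14 alternatives the log2 difference ran from -2.27 to -1.90 at IGF2, from -1.96 to -1.59 at STT3A and from 1.28 to 1.74 at CORO1C. Each was called in 10 of the 14. It ran from -1.70 to -1.32 at TMBIM6 (called in 9), from 0.77 to 1.15 at ACTB and from -2.43 to -1.10 at H4C14 (each called in 7). At TOB1 it ran from 1.23 to 2.57 and at ALB from -1.79 to -1.30, each called in only 6.

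The 9 members that fell in the nuclear fraction were, by the rule, also lower in the cytoplasmic fraction. The IGF2 peak had 229, 265 and 274 CPM in the nuclear mock libraries and 68.9, 59.2 and 44.2 CPM after arsenite, lower by a limma log2 estimate of -2.13 ± 0.16 (SE, adjusted p 0.00034). The STT3A peak had 181, 157 and 129 CPM and then 48.8, 44.8 and 32.9 CPM, which limma put at -1.83 ± 0.18 in log2 (SE, adjusted p 0.0014). The PDIA4 peak, in the mRNA of a disulphide isomerase of the endoplasmic reticulum, had 108, 110 and 114 CPM and then 32.8, 36.0 and 41.6 CPM, or -1.54 ± 0.16 in log2 by limma (SE, adjusted p 0.0018). In these 3 the mock and arsenite libraries did not overlap.

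The ALB peak (ENSG00000163631, chromosome 4, 73421157 to 73421177), in the albumin mRNA, had 40.8, 61.8 and 54.1 CPM and then 20.8, 13.6 and 13.0 CPM in the nuclear fraction (limma log2 difference -1.60, adjusted p 0.023). The TMBIM6 peak, in the mRNA of an endoplasmic reticulum membrane protein that restrains cell death, had 71.4, 56.4 and 54.1 CPM and then 22.4, 18.4 and 15.6 CPM (limma log2 difference -1.58, adjusted p 0.011). SPTBN1, SLC12A2 and GSN fell by 1.04, 1.11 and 0.77 on the log2 scale (limma adjusted p 0.015, 0.035 and 0.024). The SPTBN1 peak went from 446, 437 and 383 CPM to 217, 254 and 152 CPM. None of these groups overlapped. The replication-dependent histone gene H4C14 had 18.9, 17.3 and 14.5 CPM and then 3.20, 3.999 and 1.73 CPM (limma log2 difference -1.88, adjusted p 0.024), and its mock level was as high in the nuclear as in the cytoplasmic fraction (16.9 and 15.7 CPM by mean). H4C15, a near-copy, had a like difference of -1.88 that missed the threshold (limma adjusted p 0.10), and tags between the copies are uncertain.

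The 3 higher members went opposite ways in the fractions. The CORO1C peak (ENSG00000110880, chromosome 12, 108645212 to 108645232), in the mRNA of an actin-binding coronin, had 42.3, 46.4 and 44.4 CPM in nuclear mock and 148, 124 and 99.6 CPM after arsenite (limma log2 difference 1.42 ± 0.17, SE, adjusted p 0.0047). In the cytoplasmic fraction it had 361, 450 and 482 CPM and then 86.6, 96.6 and 102.9 CPM. After arsenite the means were 124 CPM in the nuclear and 95.4 CPM in the cytoplasmic fraction, and the latter had helped to choose the peak. The TOB1 peak (ENSG00000141232, chromosome 17, 50862873 to 50862893), in the mRNA of an antiproliferative protein that binds a deadenylase, had 1.46, 4.55 and 5.79 CPM in nuclear mock and 24.0, 24.0 and 16.5 CPM after arsenite (limma log2 difference 1.99 ± 0.33, SE, adjusted p 0.038). Its mock values are near the level of 3 tags, 2.73 to 4.37 CPM. The ACTB peak had 170, 143 and 171 CPM and then 328, 291 and 264 CPM (limma log2 difference 0.86 ± 0.11, SE, adjusted p 0.0079). In all 3 the nuclear groups did not overlap.

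**Figure D4:**
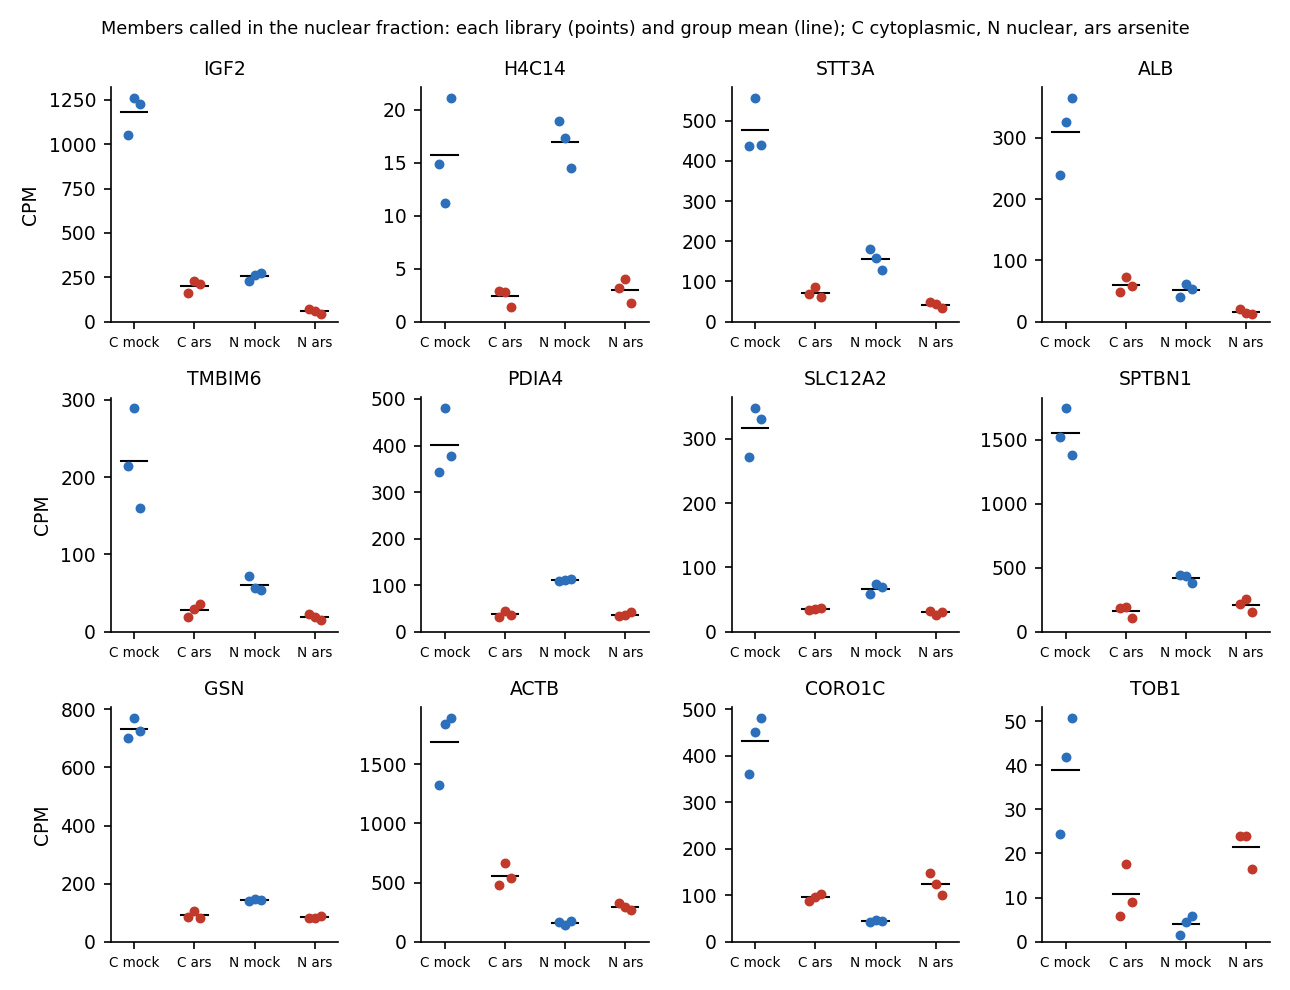
CPM in each fraction library (points) with the group mean (line) for the 12 members called in the nuclear fraction; C is cytoplasmic, N nuclear, blue mock and red arsenite, and each panel has its own linear axis from 0. In 9 panels the arsenite points lie below mock in both fractions, and for ACTB, CORO1C and TOB1 the nuclear arsenite points lie above.

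Next to these calls stood differences of like size that missed the threshold. POTEF, CNP and HSPA1B had log2 differences of 1.54, 1.45 and 1.43 in the nucleus (limma adjusted p 0.21, 0.21 and 0.13), and TMED4 and KDELR2, both of transport between the endoplasmic reticulum and the Golgi, had -1.95 and -1.89 (limma adjusted p 0.16 and 0.051). TFPI had 16.03, 23.6 and 9.66 CPM in nuclear mock and 4.004, 2.40 and 1.73 CPM after arsenite, without overlap (limma log2 difference -1.86, adjusted p 0.064). TMEM123 had 2.91, 2.73 and 4.83 CPM and then 1.601, 0 and 0 CPM (limma log2 difference -1.06, adjusted p 0.21). The strong members EIF5AL1, CNN3, SDC1, SLC38A2 and ABCA1 had nuclear log2 differences of 0.05, 0.23, 0.14, -0.13 and -0.24, none of them called. By list, the median nuclear log2 difference of members was -0.68 for plasma proteins (11 peaks), -0.41 for TMEM genes (14), -0.40 for stress-granule proteins (4), -0.37 for cell surface adhesion (19), -0.34 for the secretory list (57) and -0.29 for SLC genes (42). It was 0.59 for ZNF genes (3) and 0.61 for heat shock genes (3), beside 0.05 for all members. The other lists lay between, at -0.33 for the 1 RAB peak, -0.08 for PSM, -0.06 for UBE2, -0.05 for AU-rich decay, -0.04 for cholesterol and lipid synthesis, 0.14 for NRF2 targets, 0.18 for EIF and 0.23 for HuR targets.

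As a description, since the arsenite cytoplasmic means had chosen the members, the nuclear mean was above the cytoplasmic mean at 3 members in mock and at 309 after arsenite. Among the other eligible peaks the numbers were 11 and 371. The choice of members raises their number after arsenite, so nothing is read from these counts. The intron peaks of the members' genes summed to 22052 ± 48.0 CPM in nuclear mock and 19873 ± 1130 CPM in nuclear arsenite libraries (SD, n = 3 each), and to 13621 ± 1540 and 19493 ± 734 CPM in the cytoplasmic libraries (SD, n = 3 each). The remaining 3'UTR peaks of these genes went from 11746 ± 1366 to 7450 ± 434 CPM in the cytoplasmic and from 3411 ± 102 to 5548 ± 361 CPM in the nuclear fraction (SD, n = 3 each). MALAT1 and NEAT1, RNAs kept in the nucleus, summed to 2975 ± 171 CPM in nuclear and 2519 ± 286 CPM in cytoplasmic mock libraries (SD, n = 3 each), and to 3442 ± 426 and 3070 ± 492 CPM after arsenite. How far the fractions were separated, and its part in these values, was not tested.

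Input libraries of the APEX lines show the members without fractionation. There the summed signal of the members was not lower after arsenite. In the APEX-G3BP1 inputs all members summed to 3676 ± 1809 CPM in mock (SD, n = 4) and 7766 ± 3207 CPM after arsenite (SD, n = 5). The mock libraries ran from 1646 to 5987 CPM and the arsenite libraries from 5102 to 11883 CPM, so the groups overlapped. In the APEX-NES inputs the pairs of libraries averaged 3506 and 4268 CPM, and in the APEX-NLS inputs 3257 and 4422 CPM, in mock and arsenite. In JL0388 and JL1024, which hold 1 input library per line and treatment, the arsenite value was the higher in each of the 3 lines. The share of 3'UTR peaks among all tags in peaks was 17.2% and 28.1% in APEX-G3BP1, 16.2% and 21.2% in APEX-NES, and 14.4% and 21.1% in APEX-NLS inputs, in mock and arsenite, and its part was not tested. The members' share of the eligible signal was 32.7% and 29.2% in APEX-G3BP1, 33.1% and 29.1% in APEX-NES, and 34.6% and 29.5% in APEX-NLS inputs. The mock and arsenite shares did not overlap in the NES and NLS inputs, where each group held 2 libraries, and did in the G3BP inputs.

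Over the inputs of the 3 lines limma called 0 members of 615 tested, and 0.0% of all 17091 tested peaks (74 members, 12% of those tested, had an unadjusted p under 0.05, all higher, beside 8.71% of all tested peaks higher at that threshold), while edgeR called 8 members, all higher (1.3%, beside 1.4% of all tested peaks). The median log2 difference was 0.44 for members, 0.58 for other eligible peaks and 0.17 for all tested peaks. A peak entered a test if the number of libraries with a tag reached the size of the smaller group, so medians over tested members leave out the weakest and support no direction. ACTB had a log2 difference of 1.27 and SPTBN1 of 1.23 in the inputs (limma adjusted p 0.52 and 0.54). IGF2, lower in both fractions, had 1.14 (limma adjusted p 0.59), and STT3A had -0.88 (limma adjusted p 0.66).

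**Figure D5:**
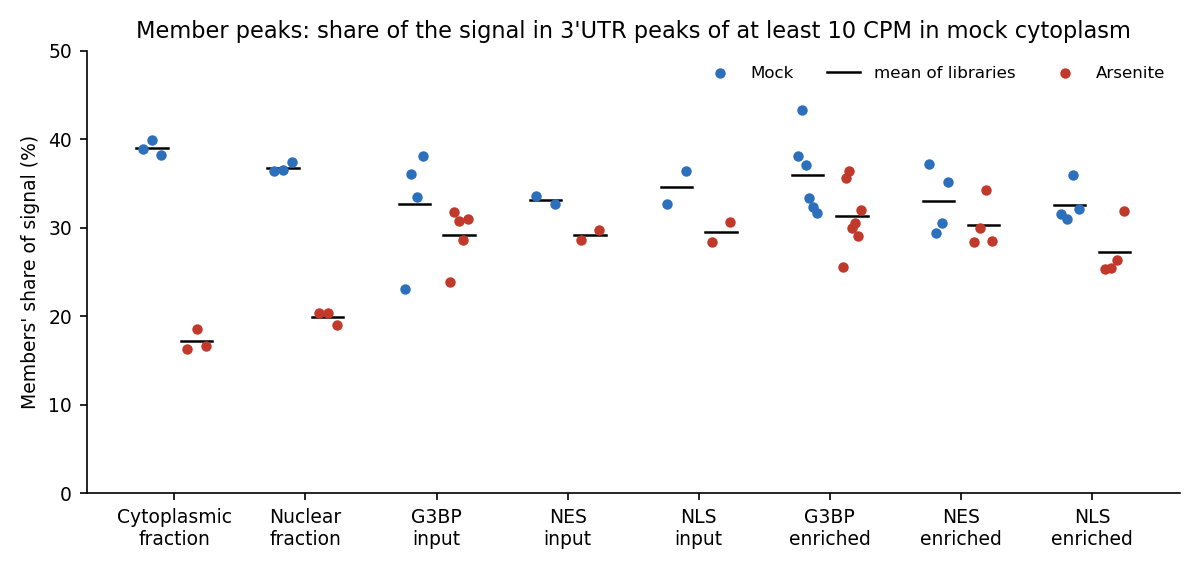
Members' share of the signal in eligible 3'UTR peaks, in percent, for each of the 58 libraries (points; blue mock, red arsenite) with the mean over all libraries of a group (line). In both fractions shares lie between 36.4 and 39.9% in mock and between 16.3 and 20.4% in arsenite libraries, and they lie between 23.0 and 43.3% in the input and enriched libraries of either treatment.

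Close to G3BP1 the mean summed signal of the members was higher after arsenite, with overlap between the groups. The G3BP enriched libraries held 3792, 4968 and 7791 CPM (lowest, median and highest of 6) in mock and 3651, 9679 and 15573 CPM (of 7) after arsenite. The means were 5452 ± 1650 CPM (SD, n = 6) and 9900 ± 4407 CPM (SD, n = 7). Within the library sets the means went from 4623 to 7752 CPM in JL0361, from 7435 to 15317 CPM in JL0388 and from 4298 to 7705 CPM in JL1024. The groups overlapped in JL0361 but not in the other sets. Some of these libraries were shallow: the JL0388 mock libraries held 115 and 33 member tags. In JL0361 mock library 1 held 24 and arsenite library 1 held 48. The other eligible peaks summed to 9822 ± 3223 and 21528 ± 9940 CPM, and the members' share was 36.0% ± 4.43 (SD, n = 6) and 31.3% ± 3.78 (SD, n = 7). The share of 3'UTR peaks among all tags in peaks was 27.8% and 44.8% there, and its part was not tested.

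Single members were mostly too shallow to follow near G3BP1. Of 746 members 246 entered the limma test of arsenite against mock. It called 0 of them and 0.0% of all 1505 tested peaks (50 members, 20.3% of those tested, had an unadjusted p under 0.05, all higher, beside 17.3% of all tested peaks higher at that threshold), and edgeR called 12, all higher (4.88%, beside 2.79% of all tested peaks). The median log2 difference was 1.07 for members, 1.205 for other eligible peaks and 0.95 for all tested peaks. Without the 4 G3BP enriched libraries under 2000 tags in peaks, a setting chosen after seeing the data, 562 members were tested, 0 were called and their median was 0.29. SPTBN1 had 112, 173 and 858 CPM (lowest, median and highest of 6) in mock and 152, 409 and 672 CPM (of 7) after arsenite (limma log2 difference 0.80, adjusted p 0.67). IGF2 had 0, 46.5 and 158 CPM in mock and 0, 11.3 and 74.4 CPM after arsenite (limma log2 difference -1.60, adjusted p 0.39). CORO1C had 0, 28.3 and 158 CPM and then 0, 119.6 and 383 CPM (limma log2 difference 1.75, adjusted p 0.38). The groups overlapped in all 3.

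The NES enriched libraries, from the cytoplasm at large, held summed member signals of 2249 ± 2275 CPM in mock and 2596 ± 2945 CPM after arsenite (SD, n = 3 each). The library sets differed more than the treatments: means were 4845 and 5996 CPM in JL0388 and 951 and 897 CPM in JL1024, in mock and arsenite. Of the members 456 had no tag in any mock and 336 in no arsenite NES enriched library. Limma called 0 of 74 tested members and 0.0% of all 753 tested peaks (6 members unadjusted, all higher, 8.11% beside 5.58% of all tested peaks). EdgeR called 0 (7 unadjusted), with 5.41% of tested members and 2.26% of all tested peaks higher at the unadjusted threshold. The NLS enriched libraries, from the nucleus, held 1227 ± 302 CPM in mock (SD, n = 4) and 1677 ± 408 CPM after arsenite (SD, n = 3), with overlap between the groups. Within each set every arsenite library was above every mock library: 1367 to 1582 CPM in mock and 1752 to 1942 CPM after arsenite in JL0388, and 923 to 1037 CPM and 1212 to 1972 CPM in JL1024. The share of 3'UTR peaks among all tags in peaks was 9.95% and 14.1%, and its part was not tested. The other eligible peaks summed to 2581 ± 812 CPM in mock (SD, n = 4) and 4340 ± 1025 CPM after arsenite (SD, n = 3). The members' share of the eligible signal ran the other way. In JL0388 it went from between 31.0 and 31.5% in mock to 25.4% in both arsenite libraries. In JL1024 it went from 32.1 and 35.9% to 26.3 and 31.9%, so that set was barely separated (32.12 against 31.94%). As a share of all 3'UTR signal JL1024 overlapped, with 16.8 and 16.5% in mock and 13.5 and 18.1% after arsenite. In JL0388 that share was 9.20 and 9.42% in mock and 8.59 and 8.34% after arsenite. Limma called 0 of 134 tested members and 0.0% of all 2796 tested peaks there (5 higher and 1 lower unadjusted). Unadjusted and higher were 3.73% of tested members beside 3.36% of all tested peaks. EdgeR called 0 (10 unadjusted), with 7.46% of tested members and 3.33% of all tested peaks higher at that threshold.

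In JL0388 and JL1024, the sets with enriched libraries of both lines, G3BP was compared with NES to ask which members lay nearer to G3BP1 than the rest of the cytoplasm did. After arsenite limma called 4 of 175 tested members higher near G3BP1, and 0 lower. Of all 1223 tested peaks 0.491% were higher, and of the 718 in 3'UTRs 0.836%. That made 6 peaks, 4 of them members. The 4 are EPS15 (an endocytic adaptor), PKP2 (a desmosomal plakophilin), EPB41L5 (a membrane-cytoskeleton linker) and GABPB1 (a subunit of the transcription factor GABP). EPS15 (ENSG00000085832, chromosome 1, 51356496 to 51356516) had 33.8, 71.3, 85.4 and 59.7 CPM in the G3BP and 0 CPM in each of the 4 NES libraries. PKP2 had 35.6 to 74.7 CPM, EPB41L5 25.6 to 74.7 CPM and GABPB1 33.8 to 44.8 CPM in the 4 G3BP libraries, and each had 0 CPM in the 4 NES libraries. Limma gave adjusted p of 0.030, 0.033, 0.046 and 0.046. The 4 peaks passed the filter on low values only through the G3BP libraries, where they are high, so their calls support nothing about the members. In the NES libraries of JL0388 3 tags equal 78.4 and 39.4 CPM, so that a 0 there carries little; in those of JL1024 they equal 6.21 and 5.31 CPM. No fold is given for this reason. The G3BP values rest on 19, 15, 12 and 11 tags. In the nuclear fraction none of the 4 was called, with log2 differences of 0.40, -0.45, -0.17 and 1.16.

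The 4 calls did not hold when a library was left out: each of the 8 omissions gave 0. Replicate number as a block also gave 0 of 175 members, and 0.0% of all tested peaks. Over 17 alternatives the fitted log2 differences kept their direction, from 2.91 to 6.71 at EPS15, 2.64 to 6.40 at PKP2, 2.41 to 6.12 at EPB41L5 and 2.33 to 6.03 at GABPB1, with limma or edgeR adjusted p up to 0.446. With the NES libraries at 0 these fitted values depend on the pseudocount and bound nothing. Scaling to the tags in peaks also gave 0 (28 members unadjusted by limma). Unadjusted and higher were 15.4% of tested members beside 8.18% of all tested peaks. That scaling moved the median log2 difference of all tested peaks from 0.83 to 0.24. The fit had kept libraries 1 and 2 of JL0388 as separate samples; with them averaged 2 members were called, beside 0.137% of all tested peaks. EdgeR called 37 members, all higher (21.1%, beside 11% of all tested peaks). The median of the tested members was 1.52, that of other eligible peaks 1.44. In mock cells limma called 0 of 88 tested members and 0.0% of all 656 tested peaks (5 members unadjusted, all higher, 5.68% beside 1.83% of all tested peaks). EdgeR called 0 (14 unadjusted), with 15.9% of tested members and 6.1% of all tested peaks higher at the unadjusted threshold. Without the G3BP enriched mock libraries under 2000 tags in peaks, both in JL0388, limma called 99 of 344 tested members higher (28.8%). That is a smaller share than the 31.6% of other eligible peaks and the 44.0% of all tested peaks. The contrast then rested on JL1024 alone, with 2 libraries per line, since JL0388 was left with NES only. Whether the contrast between G3BP and NES differed between mock and arsenite was not tested for the members.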

How the data were processed

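The data are 58 HuR CLIP-seq libraries from Huh-7.5 cells. The deposited table gives, per peak of 20 nt and library, a normalised coverage signal computed by the authors. Per the submitters' processing notes, Bowtie2, SAMtools, bedtools and HOMER were used with GRCh38.p14; the peak caller and any removal of duplicate reads are not given in the sources used here. The labels name more than one RNase dilution without tying it to libraries. Signal times 1000000 was read as CPM of the library total, and 100.0% of the values came out as whole tags (tolerance 0.02), so the totals per library were recovered. Repeated lines were dropped.

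Members and lists were chosen with earlier results of these data known. Limma 3.58.1 (R 4.3.3; linear model with trended empirical Bayes, two-sided, Benjamini-Hochberg adjustment over all tested peaks, threshold 0.05) was fitted to log2(CPM + 2.28), with the library set, and for inputs the line, as covariates. The pseudocount makes fold changes of low peaks too small. A peak was tested if the number of libraries with a tag reached the size of the smaller group. EdgeR 4.0.16 quasi-likelihood tests on the recovered tags, other pseudocounts, filters and scalings, a replicate block and omission of libraries were alternatives. Scripts were tested on simulated data. Tables and figures were made with Python 3.11.15. No comparison with 3 or more pairs had every correlation of same-numbered deviations over 0.1, so the numbers were not used to pair samples. Correlations were 0.0019 to 0.0028 in the nuclear fraction, 0.117 and 0.140 in the 2 input pairs, 0.013 to 0.202 in G3BP, 0.047 to 0.184 in NES and 0.0071 to 0.026 in NLS enriched libraries, and -0.042 to 0.112 between G3BP and NES. Counts of 3 tags correspond to 1.71 to 4.37 CPM in fraction, 1.14 to 175.9 CPM in input and 3.18 to 643.5 CPM in enriched libraries, and cover counting error only.

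The text names, with at most 1 peak per gene, the 10 members with the highest mock cytoplasmic mean, the 10 with the largest fold, the 5 genes with most members, up to 5 called members per direction and test, the 5 largest and 5 smallest nuclear differences, the peaks beside the thresholds, the strongest member of each list, and TFPI and TMEM123. SPTBN1, SLC12A2 and GSN among the nuclear calls, MARCKS, and the genes listed by name in the lists lie outside that rule or were added after their values were seen.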

Additional observations from a re-analysis of the deposited data

Results flagged for a closer look

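Every nuclear arsenite library was above every nuclear mock library in 102 members (13.7%), beside 49.8% of the other eligible peaks and 7.66% of all tested peaks. Of the 102, limma called 3, or 0.403% of the tested members. It called higher 10.5% of the other eligible peaks, 1.2% of all 3'UTR peaks and 0.152% of all tested peaks. Higher nuclear values were thus rarer among members than among the other eligible peaks. The cytoplasmic means of the 3 were lower after arsenite by the choice of members. Their cytoplasmic libraries did not overlap, which held for 738 of the 746 members, follows largely from the rule and adds no support. The nuclear log2 differences were 1.99 at TOB1, 1.42 at CORO1C and 0.86 at ACTB. The difference between the fractions was not tested, since the cytoplasmic values had chosen the members.

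Among the 4 NLS enriched arsenite libraries, replicate 4 stood apart in the members' share of the eligible signal, with 31.938% against 25.4, 25.4 and 26.3% in the others. Both values of 25.4% come from libraries 1 and 2, which may be 1 sample, and the 3 samples then left are too few for this test. It was the 1 outlier among 16 groups and measures examined, where chance flags about 1 in 20.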

How the results depend on the processing

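Counts of called members are given with the number tested and, in brackets, the percent of all peaks called at that setting. In the nuclear fraction 12 of 744 (0.186%) became 5 of 744 with a pseudocount 4 times smaller (0.0749%), 30 of 746 without the filter on low values (0.245%), 82 of 712 among peaks present in every library of a group (13.7%), 26 of 744 by edgeR (0.377%) and 0 of 744 by edgeR with TMM. Leaving out 1 library gave 0 to 11 of 744 or 745 (0.000372% to 3.37%). The 11 of 745, or 1.48%, stood beside the 3.37%, without arsenite library 3. The 12 members were also called without the filter, with the stricter filter and with scaling to the tags in peaks. With replicate number as a block 16 of 744 were called (0.219%), the 12 included; the block ended the 4 calls of G3BP against NES after arsenite (0) and changed no other count by over 1.5 times. For inputs (0 of 615) the stricter filter gave 4 of 21 (25.2%) and edgeR 8 of 615 (1.61%). For G3BP enriched libraries (0 of 246) no filter gave 8 of 719 (0.0261%), the stricter filter 5 of 11 (67.5%) and edgeR 12 of 246 (3.12%). For NES enriched libraries (0 of 74) the smaller pseudocount gave 1 of 74 (1.86%) and the stricter filter 3 of 22 (12.2%).

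For G3BP against NES after arsenite 4 of 175 (0.491%) became 7 of 175 with the smaller pseudocount (1.88%), 15 of 175 with the larger (2.78%), 31 of 58 with the stricter filter (47.4%), 37 of 175 by edgeR (11%), 0 with scaling to tags in peaks and 2 of 229 with JL0388 pairs averaged (0.137%). In mock (0 of 88) no filter gave 3 of 598 (0.0268%), the stricter filter 4 of 13 (27.7%), and leaving out libraries under 2000 tags, chosen after seeing the data, 99 of 344 (44.7%); no library of the arsenite comparison was that shallow. A peak can pass the stricter filter through the group where it is high, so these counts support no direction. Leaving out 1 library gave 0 to 0 in each comparison of input and enriched libraries. The cause of these moves was not tested.

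The member count (746) was 357 with 4 added in place of 1, 1163 with a mock minimum of 5, 420 with one of 20, and 680 to 881 without 1 library. The log2 ratio of summed member signal, arsenite over mock and over libraries, was -0.07 in the nuclear fraction (-0.13 to 0.01 without 1 library) and -0.84 as a share of the 3'UTR signal. For G3BP enriched libraries it was 0.86 (0.72 to 1.00) and -0.13 as a share, for NLS enriched 0.49 (0.37 to 0.63) and -0.10, for G3BP inputs 1.08 (0.84 to 1.42) and -0.0171, and for NES enriched 0.25 (-0.37 to 0.63). With possible repeat libraries counted once, chosen after seeing the data, it was 0.45 for NLS and 0.21 for NES enriched libraries. The NLS share was then 0.04, so its direction turned, and the NES share -0.09 (-0.14 with the libraries kept apart). Shallow enriched libraries, 13 of 29 with under 10000 tags in peaks, limit what single members can show.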
